A study of Mus musculus with 12 samples.

Results

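The 43 genes described here serve 2 membrane-bound sugar precursors of the endoplasmic reticulum (ER), the glycosylphosphatidylinositol (GPI) anchor and the dolichol-linked oligosaccharide. Most encode proteins that build them, and some GPI genes attach the finished anchor to proteins or remodel it. The genes were listed by pathway, with no value in the rule though with earlier results of these data known. All 43 were found among the 55416 Ensembl gene identifiers counted in every library. The list held 25 genes of the GPI pathway, 15 genes of the dolichol-linked pathway and the 3 subunits of dolichol phosphate mannose synthase, which serves both. The cells were E14Tg2a.4 mouse embryonic stem cells, grown in serum with leukemia inhibitory factor. In all 4 groups Rpl31, a protein of the large ribosomal subunit, was tagged with FLAG, a TEV site and AviTag, and the cells were transfected with plasmids for the N- and C-terminal fragments of ALIBi, a biotinylation system. ALIBi was targeted either to the cytosol or to the ER, and from each kind of cell both ribosome-bound RNA (from the purified biotinylated ribosomes) and whole-cell RNA (from the lysate before purification) were sequenced. Each group had 3 biological replicates, but no label says whether they were separate cultures, so the p-values cover only the spread among the libraries, which may be technical. The design text mentions siRNA for some cells, but no label of these 12 libraries names it. RNA came from whole purified mRNAs enriched for poly(A), not from ribosome footprints, so a ratio here does not measure how densely a message was bound. Whether the number of ribosomes on a message affected its recovery was not tested, so place and density are not separated.

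Both precursors are begun on the cytosolic face of the ER membrane, flipped, and finished in the lumen with sugars donated by dolichol phosphate mannose and, for the N-glycan, dolichol phosphate glucose. The finished GPI is attached by a transamidase to the C-terminus of proteins such as alkaline phosphatase, and the finished oligosaccharide is moved by the oligosaccharyltransferase to asparagines of nascent chains. Most of these enzymes cross the membrane many times. Several early steps instead pair a catalytic subunit that works from the cytosol with small membrane subunits that hold it at the ER.

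Each library held 21.1 to 26.9 M reads in genes. The 43 genes took 0.087% to 0.089% of these reads in the 3 cytosol-labelled ribosome libraries, 0.205% to 0.211% in the 3 ER-labelled ones and 0.118% to 0.121% in the 6 whole-cell ones. Transcripts encoded in mitochondria made up 1.859% to 1.939% of whole-cell reads and 0.033% to 0.045% of ribosome-bound reads. All 10 stem cell markers were read, with a summed level of 9020 to 9340 CPM (counts relative to library size, scaled as described below) in the whole-cell libraries. The sums there were 35 to 37.7 CPM for 6 fibroblast markers, 7.8 to 9.95 for 4 endoderm, 1.23 to 1.6 for 3 mesoderm and 6.48 to 7.79 for 3 neural markers. The fibroblast markers summed to 30.6 to 32.4 CPM in the cytosol-labelled and 88.6 to 92.8 CPM in the ER-labelled ribosome libraries, and their part in the results was not tested. These sums include Thy1, itself a GPI-anchored protein, at a mean of 16.1 CPM on cytosol-labelled and 58.4 CPM on ER-labelled ribosomes. No marker of these lists was at 0 in all 12 libraries. Levels above and below are CPM scaled by the trimmed mean of M values (TMM). Differences are log2 ratios, given with standard errors (SE), from edgeR's quasi-likelihood test. They were called at a Benjamini-Hochberg adjusted p under 0.05 over the 16221 genes tested. Of the 43 genes, 42 passed the filter on low counts. Pigz, which adds the fourth mannose to GPI, did not, at 0.115 ± 0.0789 CPM (SD, n = 3) on cytosol-labelled and 0.232 ± 0.0381 CPM on ER-labelled ribosomes (1 to 6 reads per library).

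**Figure D1:**
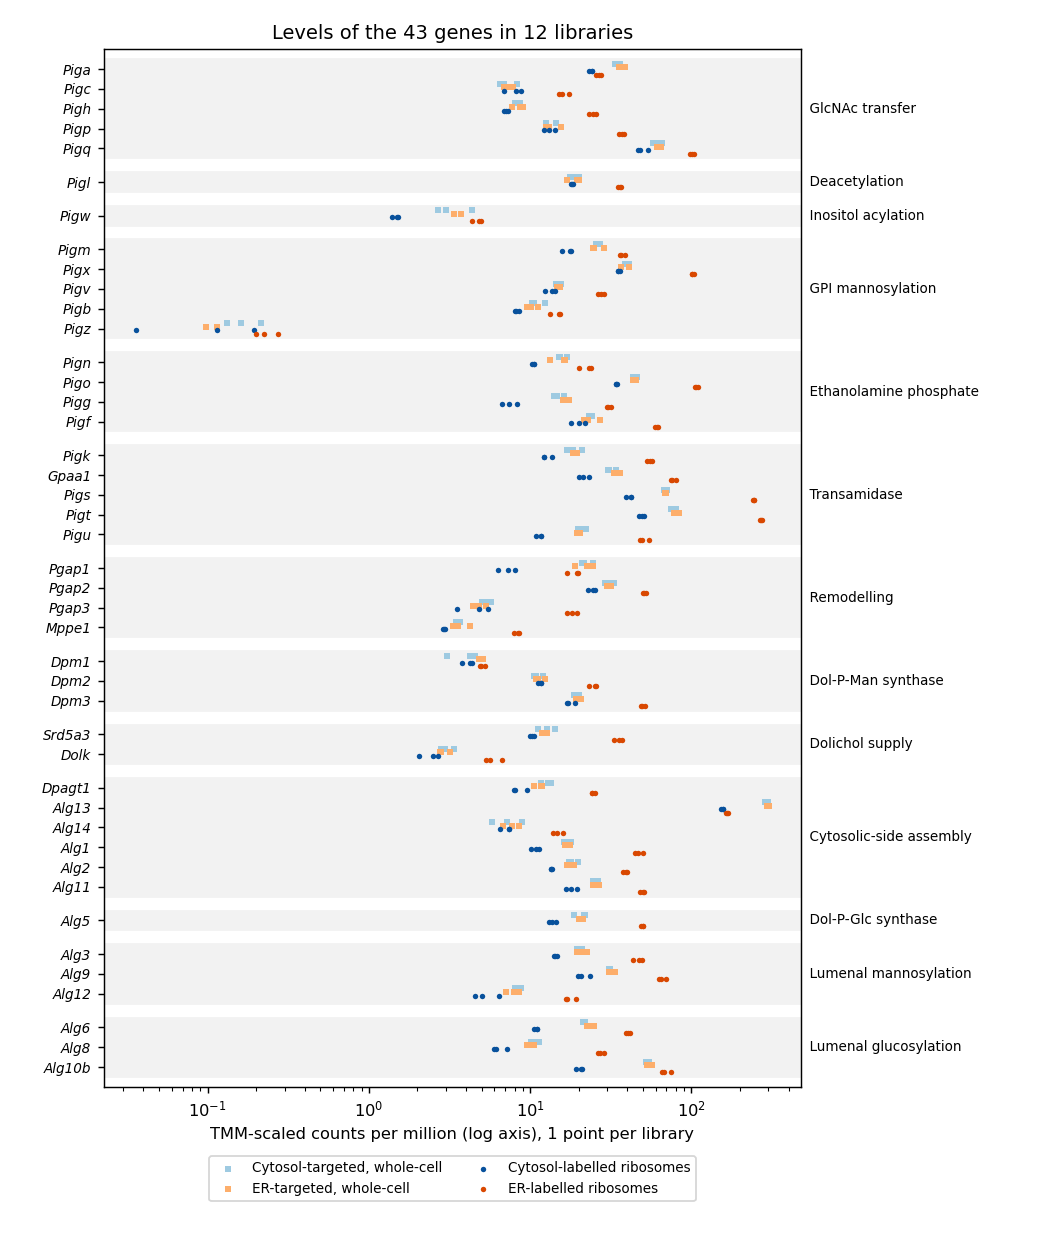
TMM-scaled CPM on a log axis for each of the 43 genes, with 1 point per library and genes grouped by step of the pathways (Pigz in 1 ER whole-cell library, with 0 reads, is not drawn). The red points (ER-labelled ribosomes) lie right of the dark blue points (cytosol-labelled ribosomes) for all 42 genes tested, while the pale squares of the whole-cell groups fall together; Alg13, Piga and Dpm1 show the smallest gaps.

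Ribosomes labelled at the ER were compared with ribosomes labelled in the cytosol to ask which messages were translated at each place. Of the 42 genes tested, the ER-labelled libraries were higher for 41 and lower for 0 by edgeR's adjusted p, and lower for 0 at an unadjusted p under 0.05 or by DESeq2. Over all genes 29.1% were higher and 24.6% lower. A difference of over 2-fold was found for 37 of the 42, against 18.1% of all genes, and every ER-labelled library lay above every cytosol-labelled one for 42 of 42, against 31% of all genes. The median log2 ratio was 1.53 (2.89-fold) and ranged from 0.10 to 2.57, beside a median of 0 over all genes. Cells were measured in bulk, so fewer cells with a message and less of it per cell cannot be told apart.

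By pathway, 24 of 24 tested GPI genes were higher, with a median of 1.51, and 15 of 15 dolichol genes, with a median of 1.71. Enzymes that work on the cytosolic face had 17 of 18 higher and a median of 1.38, those that work in the lumen 24 of 24 and a median of 1.69. The spread within the cytosolic face was wide, from 0.10 to 2.12, and within the lumen it ran from 0.80 to 2.57. The GPI count includes Piga (0.16) and the dolichol count Alg13 (0.10), both of the cytosolic face, whose calls were lost under alternatives named below. These groups were not tested against each other.

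**Figure D2:**
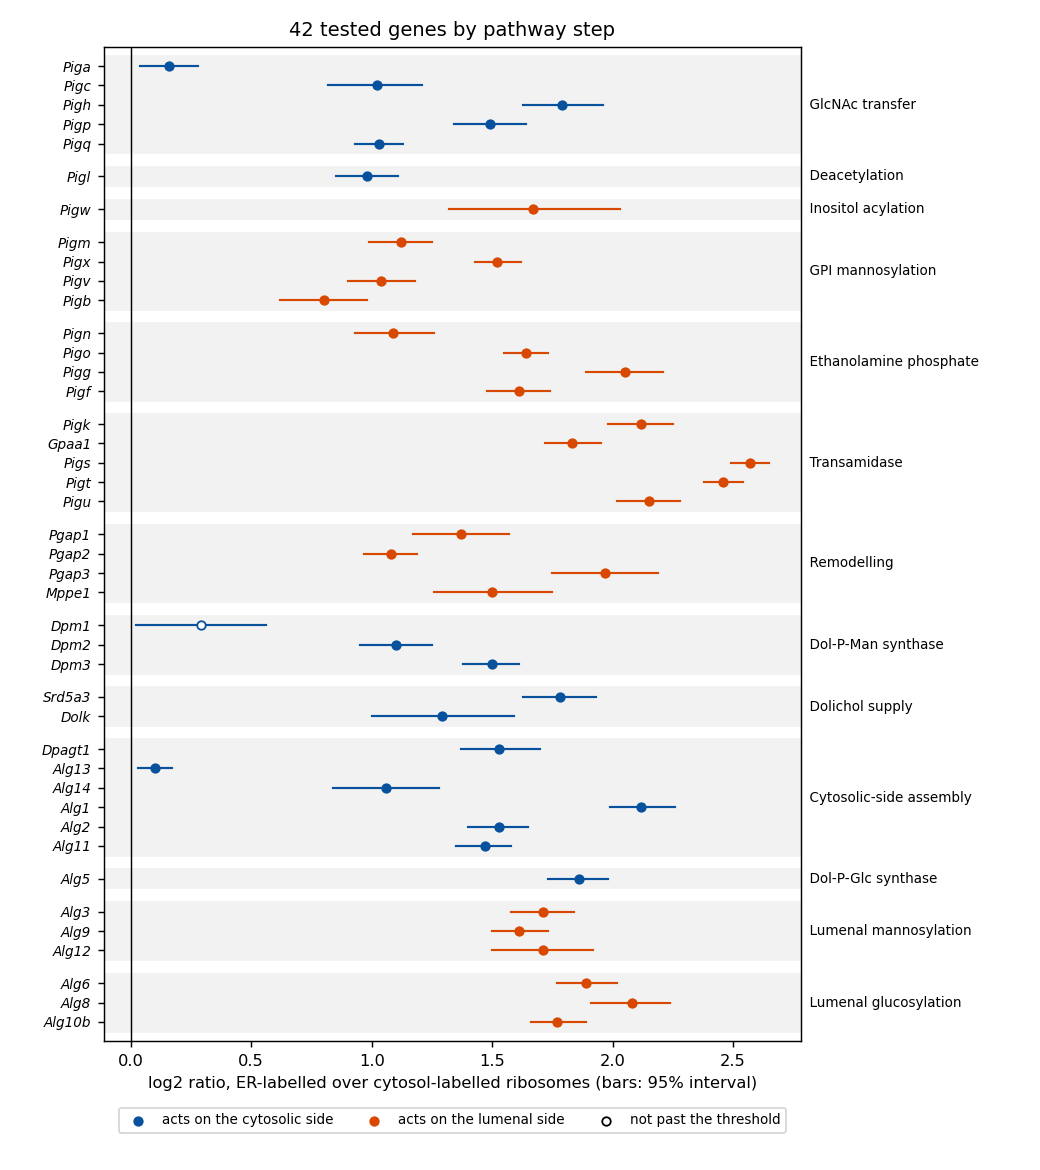
Log2 ratio of ER-labelled over cytosol-labelled ribosomes for the 42 genes tested, with the 95% interval as a bar, ordered by step and coloured by the side of the membrane on which the enzyme acts. The 5 transamidase genes lie at 1.83 to 2.57, and Alg13, Piga and Dpm1 (open point, adjusted p above 0.05) lie at 0.10 to 0.29.

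The GPI transamidase stood highest among the steps, with a median of 2.15 over its 5 subunits. Pigs, a structural subunit, was read at 41.9, 39.1 and 42.1 CPM on cytosol-labelled ribosomes and at 244, 242 and 245 CPM on ER-labelled ones, a 5.94-fold difference (log2 2.57, SE 0.039, adjusted p = 2.7e-34). Pigt, which is disulfide-linked to the catalytic subunit, was at 50.7, 47 and 49.5 CPM against 271, 273 and 265 CPM (log2 2.46, SE 0.040). In both genes the 3 replicates of a group lay close together and the groups were far apart. Pigu, a multispanning subunit, went from 11.6, 10.9 and 11.7 CPM to 48, 49.6 and 54.6 CPM (log2 2.15, SE 0.064). Pigk, the cysteine protease that cuts the protein and joins the anchor, was at 12.1, 13.7 and 12.2 CPM against 53, 55 and 56.9 CPM, a 4.34-fold difference (log2 2.12, SE 0.066). Gpaa1, the subunit thought to form the bond with the anchor, had the lowest ratio of the complex at 1.83 (SE 0.057), still 3.56-fold.

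Earlier lumenal steps of GPI synthesis gave smaller and more varied ratios. The mannosyltransferase step had a median of 1.08 over 4 genes: Pigm, for the first mannose, at 1.12 (SE 0.065), its partner Pigx at 1.52 (SE 0.046), Pigv, for the second, at 1.04 (SE 0.068), and Pigb, for the third, at 0.80 (SE 0.091). Pigb was the lowest of the lumenal enzymes, at 8.57, 8.09 and 8.2 CPM on cytosol-labelled and 15.2, 13.2 and 15 CPM on ER-labelled ribosomes. Its exons share 38.6% of their bases with genes on the opposite strand in the GENCODE M21 annotation. The strand setting of the counter is not given in the sources used here, so how reads over these bases were counted is not known. The share of bases on the opposite strand was 31.6% for Pigf, 27.3% for Pigh, 23.6% for Mppe1, 17.6% for Alg1 and 12.9% to 16.4% for Pigp, Alg3, Pigq and Alg9. Among the ethanolamine phosphate transferases Pigg reached 2.05 (SE 0.078), Pigo 1.64 (SE 0.044) and Pign 1.09 (SE 0.082), and Pigf, the partner shared by Pigo and Pigg, 1.61 (SE 0.064). Pigw, which acylates the inositol, was at 1.67 (SE 0.17) on low counts of 39 reads in each cytosol-labelled library and 105 to 111 in each ER-labelled library. Of the remodelling genes that act on the anchor after attachment, Pgap3 had 1.97 (SE 0.11), Mppe1 1.50 (SE 0.12), the inositol deacylase Pgap1 1.37 (SE 0.099) and Pgap2 1.08 (SE 0.054).

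In the dolichol pathway Alg1, which adds the first mannose from the cytosolic side, was the highest, at 10.1, 10.9 and 11.3 CPM on cytosol-labelled and 50.3, 44.5 and 46.7 CPM on ER-labelled ribosomes (log2 2.12, SE 0.066). Dpagt1, the tunicamycin target that starts the chain with GlcNAc phosphate, was at 9.6, 8.01 and 7.88 CPM against 24.3, 24 and 25.4 CPM, a 2.89-fold difference (log2 1.53, SE 0.081). Alg2 and Alg11, which add the next mannoses, had 1.53 (SE 0.063) and 1.47 (SE 0.058). The lumenal enzymes were close to each other. The mannosyltransferases Alg3, Alg12 and Alg9 had 1.71 (SE 0.063), 1.71 (SE 0.10) and 1.61 (SE 0.056), and the glucosyltransferases Alg8, Alg6 and Alg10b 2.08 (SE 0.082), 1.89 (SE 0.062) and 1.77 (SE 0.055). Alg5, the dolichol phosphate glucose synthase, had 1.86 (SE 0.061), the dolichol kinase Dolk 1.29 (SE 0.14) and Srd5a3, needed to make dolichol from polyprenol, 1.78 (SE 0.073).

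The 3 lowest ratios of all belonged to catalytic subunits that work from the cytosol, each with membrane-bound partners in the list. Alg13, the catalytic subunit of the transferase for the second GlcNAc of the N-glycan precursor, was at 153, 156 and 156 CPM on cytosol-labelled and 165, 164 and 169 CPM on ER-labelled ribosomes (log2 0.10, SE 0.034, adjusted p = 0.013). Its membrane partner Alg14 was at 7.39, 7.36 and 6.48 CPM against 15.9, 13.8 and 14.7 CPM (log2 1.06, SE 0.11). Both differences passed the threshold, but Alg13 moved by 1.07-fold and Alg14 by 2.09-fold. Piga, the catalytic subunit of the transferase that puts GlcNAc on phosphatidylinositol, was at 24.2, 23 and 24.1 CPM against 25.5, 27.5 and 26.7 CPM (log2 0.16, SE 0.058, adjusted p = 0.017). The other subunits of that enzyme lay higher, with Pigh at 1.79 (SE 0.080), Pigp at 1.49 (SE 0.073), Pigq at 1.03 (SE 0.049) and Pigc at 1.02 (SE 0.096). Pigl, the deacetylase of the next step, had 0.98 (SE 0.063).

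Dpm1, the catalytic subunit of dolichol phosphate mannose synthase, was the 1 gene tested that missed the threshold. It was at 4.36, 4.26 and 3.76 CPM on cytosol-labelled and 5.23, 4.97 and 4.88 CPM on ER-labelled ribosomes, with no overlap (log2 0.29, 95% interval 0.02 to 0.56, adjusted p = 0.070). Its membrane subunits Dpm2, at 11.6, 11.1 and 11.7 CPM against 25.5, 23.1 and 25.2 CPM, and Dpm3, at 17.2, 16.8 and 18.9 CPM against 48.8, 49.2 and 51.5 CPM, had ratios of 1.10 (SE 0.073) and 1.50 (SE 0.058). Dpm1 was read 105 to 125 times in each ribosome library, which limits its precision, and 12% of its exon bases are shared with a predicted gene on the same strand, Gm20716. The calls of Piga and Alg13 were lost with RLE size factors, without mitochondrially encoded genes, without a filter on low counts, with DESeq2, and without any 1 library other than cytosol ribosome-bound replicates 1 and 3 and ER whole-cell replicate 1. Their ratios were then 0.07 to 0.13 and 0.03 to 0.06. With scaling to cytosolic proteins, which raised the median of all genes by 0.24, Dpm1 was called at 0.52 (adjusted p = 0.0012).

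Ratios of read counts within a library do not depend on scaling between libraries, and were formed for 9 pairs of a membrane subunit and a catalytic one. The pairs were chosen after the ratios of single genes had been seen, so they restate those ratios and are no separate support. Alg14 over Alg13 was 0.0481, 0.0471 and 0.0416 on cytosol-labelled and 0.096, 0.0839 and 0.0868 on ER-labelled ribosomes, a log2 difference of 0.96. Dpm2 over Dpm1 was 2.65, 2.61 and 3.11 against 4.88, 4.65 and 5.18 (0.82), and Dpm3 over Dpm1 3.95, 3.95 and 5.03 against 9.32, 9.91 and 10.6 (1.21). Over Piga the differences were 1.63 for Pigh, 1.33 for Pigp, 0.87 for Pigc and 0.87 for Pigq. In each of these pairs all ER-labelled libraries lay above all cytosol-labelled ones, with a 2-sided exact permutation p = 0.1, the smallest that 3 against 3 allows and the same after adjustment over the 9 pairs. In the transamidase Pigs over Pigk differed by 0.45, also with all ER-labelled libraries above all cytosol-labelled ones and p = 0.1 by the same permutation test. The catalytic Pigk itself has an early hydrophobic stretch, and whether such stretches bear on these ratios was not tested.

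**Figure D3:**
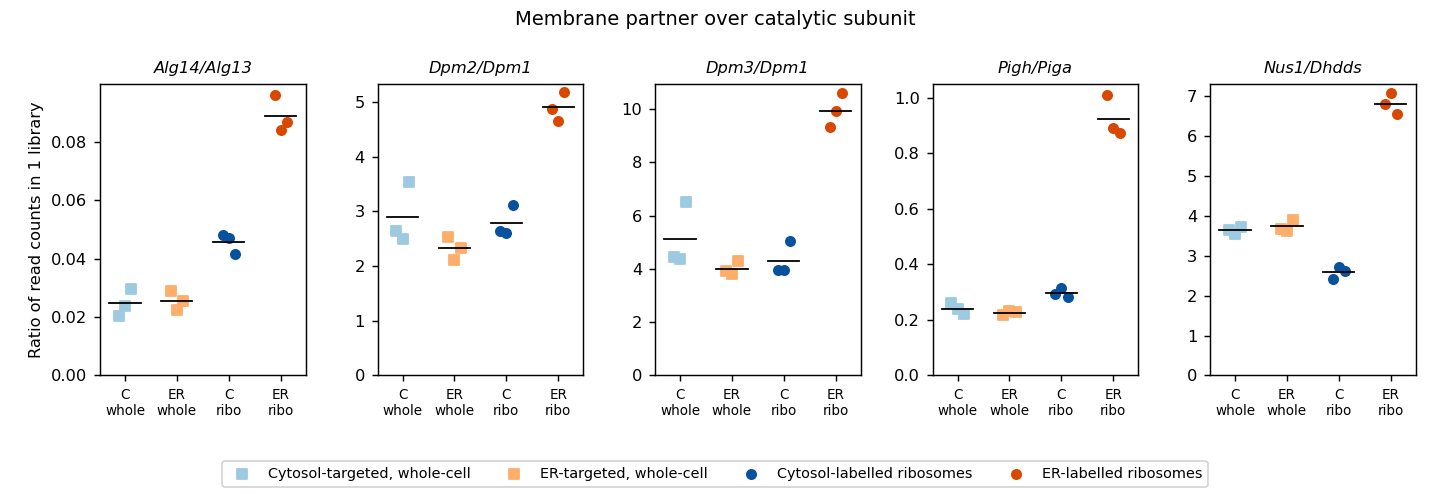
Ratio of the read counts of a membrane partner to those of a catalytic subunit in each of the 12 libraries, on linear axes that start at 0, with the mean of each group as a bar. In the 5 pairs shown the ER-labelled ribosome libraries (red) are the highest, for example 0.874 to 1.01 for Pigh over Piga against 0.284 to 0.316 on cytosol-labelled ribosomes.

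Coding sequences of some of these genes are shown because most differ in where the first hydrophobic stretch is made. They come from the principal transcripts of GENCODE M21 on GRCm38, in coding exons, and capitals mark the codons of a stretch of 19 residues with a mean Kyte-Doolittle hydropathy of at least 1.6. The first lines give the starts of Alg13 (chrX:144318041-144319937, plus strand, 2 exons with the intron left out) and Alg14 (chr3:121291848-121291937, plus strand), 120 and 90 bases long.
Alg13: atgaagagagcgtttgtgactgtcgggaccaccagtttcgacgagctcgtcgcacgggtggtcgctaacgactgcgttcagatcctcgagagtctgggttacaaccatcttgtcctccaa
Alg14: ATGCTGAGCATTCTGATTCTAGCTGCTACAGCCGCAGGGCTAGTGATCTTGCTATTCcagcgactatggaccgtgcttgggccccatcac
The starts of Dpm1 (chr2:168230234-168230353, minus strand), Dpm2 (chr2:32570910-32571292, plus strand, 2 exons with the intron left out) and Dpm3 (chr3:89266734-89266853, plus strand) follow.
Dpm1: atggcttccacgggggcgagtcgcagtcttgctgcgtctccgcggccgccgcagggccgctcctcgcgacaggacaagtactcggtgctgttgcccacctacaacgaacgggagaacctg
Dpm2: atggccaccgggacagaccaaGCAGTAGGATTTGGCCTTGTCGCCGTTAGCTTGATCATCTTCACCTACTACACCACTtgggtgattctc
Dpm3: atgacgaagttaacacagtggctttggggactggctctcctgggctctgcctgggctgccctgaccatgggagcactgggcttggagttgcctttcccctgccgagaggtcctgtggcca
For the GPI pathway the stretch of Piga, which starts at residue 417 of 485 (chrX:164431678-164431752, plus strand), stands beside the starts of Pigh (chr12:79089452-79089619, minus strand) and of Pigs (chr11:78328475-78328811, plus strand, 2 exons with the intron left out), the gene with the highest ratio.
Piga: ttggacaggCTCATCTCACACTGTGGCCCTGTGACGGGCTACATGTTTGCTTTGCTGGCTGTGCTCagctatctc
Pigh: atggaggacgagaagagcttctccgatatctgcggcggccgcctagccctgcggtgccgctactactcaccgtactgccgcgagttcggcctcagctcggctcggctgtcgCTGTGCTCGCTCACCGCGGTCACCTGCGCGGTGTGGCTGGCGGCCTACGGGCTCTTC
Pigs: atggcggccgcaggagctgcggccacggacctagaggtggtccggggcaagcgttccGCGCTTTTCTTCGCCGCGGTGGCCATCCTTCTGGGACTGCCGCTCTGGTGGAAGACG
Alg14, Dpm2, Pigh and Pigs carry the stretch within the first 60 residues, Alg13 and Dpm1 have none anywhere, and Piga has it near its end. Dpm3, 92 residues long, has no capitals because its most hydrophobic window averaged 1.56, just under the threshold.

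The place of the first such stretch was noted for all 42 genes tested, a feature that played no part in choosing them. It began by residue 60 in 33 genes, whose median ratio was 1.61 (0.80 to 2.57), beside 1.50 over the 2429 genes of all those tested with an early stretch. It began later in 5 genes, Alg2, Alg6, Alg9, Pgap3 and Pigx, which had 1.52 to 1.97, while the 2060 genes of that kind had a median of 0.31. Pigx has an annotated coding sequence that does not begin with ATG, so its first residues are uncertain. Piga alone had a single stretch within 60 residues of the end (0.16, against a median of 0.10 for 399 genes), and Alg13, Dpm1 and Dpm3 had none (0.10, 0.29 and 1.50, against -0.11 for 9259 genes). By number, the 21 genes with 5 or more stretches had a median of 1.64, the 14 with 2 to 4 had 1.56, the 4 with 1 had 1.25 and the 3 with 0 had 0.29. These are descriptions over genes, which are not replicates, and no test was made of them. The Alg13 protein used here is 165 residues long, and its other complete coding transcripts in that annotation, of 61 residues each, had no stretch either. Any transcripts with an incomplete coding sequence were not searched.

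**Figure D4:**
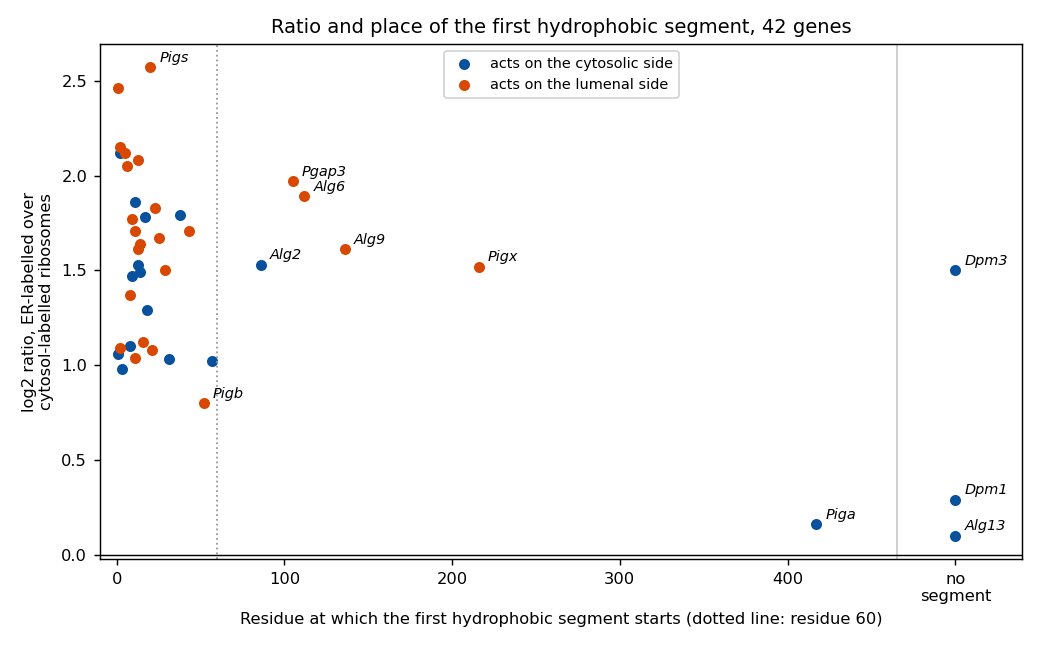
Log2 ratio of ER-labelled over cytosol-labelled ribosomes against the residue at which the first hydrophobic stretch starts, 1 point per gene, with genes without a stretch at the right. The genes left of the dotted line at residue 60 lie between 0.80 and 2.57, and Piga, Dpm1 and Alg13 lie lowest, while Dpm3 has no stretch and a ratio of 1.50.

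The next comparison took ribosome-bound RNA over the whole-cell RNA of its own targeting. It shares its ribosome-bound libraries with the previous one. On ER-labelled ribosomes 38 of 42 genes were higher than in whole-cell RNA and 3 were lower, where 32.5% and 30.6% of all genes were. Over 2-fold, 25 genes were higher, against 16.5% of all genes. The median was 1.12, beside 0.01 over all genes. The 3 highest were Pgap3, at 16.9, 18.2 and 19.6 CPM on ER-labelled ribosomes against 5.35, 4.43 and 4.83 CPM in whole-cell RNA (log2 1.9, SE 0.11), Pigs (1.82, SE 0.038; 68.6, 68.7 and 69.7 CPM in whole-cell RNA) and Pigt (1.75, SE 0.039; 77.6, 83.4 and 79.7 CPM). Pgap3 removes a fatty acid from the anchor in the Golgi.

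The genes below whole-cell level on ER-labelled ribosomes were Alg13, Piga and Pgap1. Alg13 was at 296, 299 and 303 CPM in whole-cell RNA of ER-targeted cells, above all 3 ER-labelled ribosome libraries (log2 -0.85, SE 0.034, adjusted p = 2.5e-22). Piga, at 35.7, 38.9 and 37.8 CPM in the same whole-cell RNA, had -0.49 (SE 0.056, adjusted p = 9.3e-10). Pgap1 was at 19.8, 16.9 and 19.6 CPM on ER-labelled ribosomes and 22.5, 18.9 and 24.5 CPM in whole-cell RNA, with overlapping groups (-0.24, SE 0.085, adjusted p = 0.014). This call ended with scaling to cytosolic proteins (0.01), without ER ribosome-bound replicate 2 (-0.17) and without ER whole-cell replicate 3 (-0.15). Dpm1 had 0.03 (95% interval -0.24 to 0.30), at 4.88, 5.11 and 4.79 CPM in whole-cell RNA. Pigw was higher by 0.37 (SE 0.15, adjusted p = 0.033), a call that ended with DESeq2 (0.37) and without any of 5 libraries (0.32 to 0.39), namely ER ribosome-bound replicates 1 and 3 and the 3 ER whole-cell replicates.

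On cytosol-labelled ribosomes most of the 42 genes lay below whole-cell level. None of the 42 was above it by edgeR's adjusted p, by an unadjusted p under 0.05 (0 genes) or by DESeq2 (0 genes), and 32 were lower, where 20.8% and 33% of all genes were. The median was -0.50, beside -0.05 over all genes. Pgap1 was the lowest, at 6.31, 8.09 and 7.3 CPM on cytosol-labelled ribosomes and 21, 24.5 and 21.5 CPM in whole-cell RNA, a 3.08-fold difference (log2 -1.62, SE 0.096). Alg10b, which adds the last glucose, was at 20.6, 19.2 and 21 CPM against 52.2, 54.2 and 54.8 CPM (-1.40, SE 0.056), and Pigw at 1.49, 1.51 and 1.4 CPM against 3.01, 2.68 and 4.38 CPM (-1.19, SE 0.18). All cytosol-labelled libraries lay below all whole-cell ones for these 3 genes, which were picked as the lowest. The same held for 34 of the 42 genes and for 35.2% of all genes. At the other end Pigc (0.14, SE 0.11), Dpm1 (0.06, SE 0.14) and Dpm2 (0.04, SE 0.082) did not pass the threshold, with levels of 6.89, 8.13 and 8.74 against 6.5, 8.3 and 6.88 CPM for Pigc. Without cytosol whole-cell replicate 2, Pigc was called higher (0.30).

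**Figure D5:**
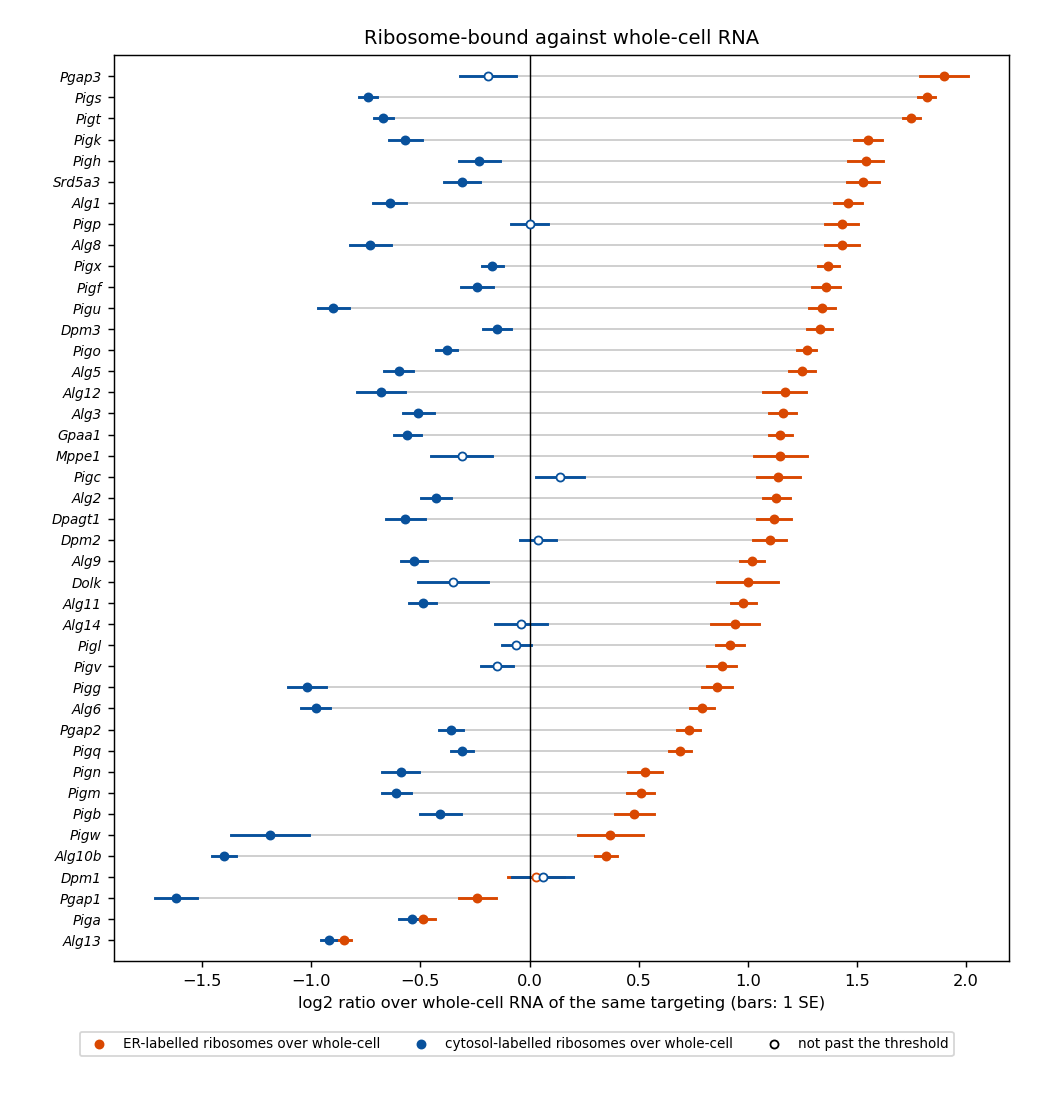
Log2 ratio of ribosome-bound over whole-cell RNA for the 42 genes tested, on ER-labelled (red) and cytosol-labelled (blue) ribosomes, with bars of 1 SE, open points where the adjusted p was above 0.05 and genes ordered by the red value. The red point lies right of the blue one by 0.89 to 2.56 for 39 genes, and the points nearly coincide for Alg13, Piga and Dpm1.

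Alg13, Piga and Dpm1 had nearly the same ratio over whole-cell RNA on both kinds of ribosome. Alg13 was lower by nearly the same amount in the cytosol-labelled libraries (-0.92, SE 0.034), where whole-cell RNA stood at 287, 299 and 297 CPM, and Piga likewise (-0.54, SE 0.056), where it stood at 33.4, 34.4 and 36 CPM. The difference between both ratios over whole-cell RNA was tested as an interaction. It equals the ratio of ER-labelled over cytosol-labelled ribosomes less the ratio between both whole-cell groups, whose median was 0.01. The interaction therefore largely restates the first comparison (median 1.53) and is no separate support for it. It was higher for the ER in 39 of 42 genes and lower in 0 (also 0 at an unadjusted p under 0.05 and 0 by DESeq2), where 24.8% and 18.6% of all genes were, and its median was 1.55. The 3 genes not called were Alg13 (0.08, 95% interval -0.02 to 0.17), Piga (0.05, -0.11 to 0.21) and Dpm1 (-0.02, -0.41 to 0.36). Their partners were called, with Alg14 at 0.97 (SE 0.16), Pigh at 1.77 (SE 0.12), Dpm2 at 1.06 (SE 0.11) and Dpm3 at 1.48 (SE 0.087). With scaling to cytosolic proteins, which raised the median of all genes by 0.26, Alg13 (0.33) and Piga (0.30) were called too.

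Pgap1 and Alg10b were singled out here after their values were seen. Pgap1 was 1.37 higher on ER-labelled than on cytosol-labelled ribosomes, and over whole-cell RNA it had -1.62 on the latter and, on the former, the -0.24 that did not hold under the alternatives named above. Alg10b was 1.77 higher on ER-labelled ribosomes and there 0.35 above whole-cell level. Across the 42 genes the length of the annotated transcript had a Spearman rho of -0.41 with the ratio on ER-labelled ribosomes over whole-cell RNA, -0.37 with that on cytosol-labelled ribosomes and -0.05 with the ER over cytosol ratio. With all annotated exon bases of a gene as its length, a choice made after seeing the data, rho was -0.48, -0.38 and -0.14. The first and second share no library, the third shares libraries with both, and genes are not independent replicates, so these are descriptions.

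Whole-cell RNA of ER-targeted and cytosol-targeted cells was compared as the input to both purifications. By edgeR's adjusted p 0 of the 42 genes were higher and 0 lower, as was 0% of all genes in each direction, and DESeq2 also called 0. At an unadjusted p under 0.05, 4 of the 42 genes were higher (Gpaa1, Pigg, Piga and Dpm1) and 0 lower, beside 356 higher and 278 lower of all 16221. Ratios ranged from -0.16 to 0.31 with a median of 0.01. The largest was Dpm1, at 4.53, 4.26 and 3.07 CPM in cytosol-targeted and 4.88, 5.11 and 4.79 CPM in ER-targeted cells (0.31, 95% interval 0.03 to 0.59), an amount like its ratio between the ribosome libraries. Dpagt1, the lowest, was at 13.4, 11.6 and 12.9 against 11.7, 11.9 and 10.5 CPM (-0.16, 95% interval -0.34 to 0.02).

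Levels of different genes were compared per kilobase, with the length of the principal transcript and, as a choice made after seeing the data, with all annotated exon bases of the gene. Alg13 was the most abundant of the 43 messages in whole-cell RNA of cytosol-targeted cells by either length, at 163 and 42.9 CPM per kb, and its partner Alg14 was at 3.57 and 2.91. Dpm1, at 1.72 and 0.527, was below Dpm2 (12.9 and 5.68) and Dpm3 (48.5 and 21.3). Piga, at 9.63 and 5.42, stood above Pigh (3.55 and 2.28) and Pigc (3.29 and 1.7) and below Pigp (17.4 and 6.64) and Pigq (19.3 and 10.1). Pigz was the lowest, at 0.0769 and 0.0661. On ER-labelled ribosomes the order at the top depended on the length used. Pigs was at 97.6 by both and Pigt at 105 and 70, while Alg13 was at 92.1 and 24.2, Dpm3 at 123 and 54.2 and Pigx at 133 and 42.5. The principal transcript of Pigx, 0.76 kb long, holds its coding sequence alone, against 2398 annotated exon bases, so its first value is too high if untranslated bases were read. No error of the lengths was estimated.

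Genes that surround these pathways were taken from fixed lists in the same fit of ER-labelled against cytosol-labelled ribosomes. Of 12 further genes listed with the pathways 10 were higher and 0 lower, against 29.1% and 24.6% of all genes, with a median of 1.50. Mpdu1, needed for the use of dolichol-linked sugars, had 1.74 (SE 0.041), and Clptm1l, a scramblase for the early GPI lipid, 1.70 (SE 0.048). The lowest were Pyurf (-0.01, SE 0.096), which is not itself a GPI enzyme, and Dhdds (0.28, SE 0.057). Dhdds, the catalytic subunit of the prenyltransferase that makes the dolichol chain, was at 23.9 ± 0.864 CPM (SD, n = 3) on cytosol-labelled and 29 ± 1.23 CPM on ER-labelled ribosomes. Its membrane partner Nus1, singled out after its value was seen, was at 61.7 ± 2.46 against 197 ± 5.77 CPM (1.68, SE 0.040). Nus1 over Dhdds in reads was 2.41, 2.72 and 2.62 against 6.8, 7.07 and 6.54, and by the same search Dhdds had no hydrophobic stretch while Nus1 had 1, from residue 118.

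Enzymes that make the soluble sugar donors in the cytosol differed little. Of 10 such genes 1 was higher, Gfpt1 (0.19, SE 0.058), and 3 were lower, with Ugp2 (-0.34, SE 0.055) and Gnpnat1 (-0.24, SE 0.055) lowest, and the median was -0.15. Beside the counts of this and the next lists, 29.1% of all genes were higher and 24.6% lower. After Gfpt1 the next was Pmm1 at -0.07 (SE 0.034), which was not called. The enzyme that uses the finished oligosaccharide and the proteins that carry the GPI anchor were listed too. All 11 oligosaccharyltransferase subunits tested were higher (median 1.92), from Ddost (2.67, SE 0.037) and Rpn1 (2.49, SE 0.037) down to Tmem258 (1.03, SE 0.040) and the very short Ost4 (0.27, SE 0.043). All 16 GPI-anchored proteins tested were higher (median 1.91), led by the glypican Gpc3 (2.56, SE 0.042) and alkaline phosphatase, Alpl (2.33, SE 0.036), with Cd24a lowest (0.95, SE 0.069), followed by Efna3 (1.66, SE 0.073) and Rtn4r (1.66, SE 0.13). With scaling to cytosolic proteins 8247 of all genes were higher and 609 lower in this comparison, in place of 4715 and 3983, so small ratios such as those of the sugar donor enzymes, Ost4, Dhdds, Alg13, Piga and Dpm1 depend on what is held constant.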

How the data were processed

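The authors deposited raw read counts per Ensembl gene, 1 file per library. The submitters' processing notes name STAR 2.7.9a, HTSeq 0.11.2, DESeq2 and the build GRCm39. Not given in the sources used here are the annotation release, the strand setting and what was done with multimapped reads, so genes that overlap others are uncertain. The 5 class totals outside genes (8.75% to 12.54% of reads) were left out. Symbols and coding sequences came from GENCODE M21 on GRCm38, which named 52083 identifiers; the 3333 others held 0.41% of counts.

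Genes were kept with filterByExpr by group (16221), scaled by TMM, and fitted in 1 model of 4 groups over 12 libraries with edgeR 4.0.16 in R 4.3.3, with 2-sided quasi-likelihood tests of 5 comparisons and Benjamini-Hochberg adjustment over all genes tested. The SE was taken as the size of the log2 ratio divided by the root of F, and the biological coefficient of variation was 3.61%. Intervals cover counting error and replicate spread, not amplification. The procedure was run on simulated data with known changes, and its pass mark for recovering them was lowered after a first run. Proteins were translated from the principal, or else longest, coding sequence of each gene and searched with a 19-residue window.

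All genes may be named; values per library were given for the 4 highest and 4 lowest in the first comparison, the 3 highest and lowest over whole-cell RNA, and 8 catalytic genes and partners. The members and lists were chosen with earlier results of these data known, and symbols of the lists were matched to M21 afterwards. Replicates of a group differed by more than counting noise (chi-square per gene 2.08 to 8.81). Alternatives were size factors (RLE), DESeq2 1.42.0, no filter on low counts, scaling to 115 cytosolic protein genes, leaving out mitochondrially encoded genes, fitting only the groups compared, a replicate block and leaving out each library; a second gene length was added after seeing the data.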

Additional observations from a re-analysis of the deposited data

Results flagged for a closer look

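The enrichment of ribosome-bound over whole-cell RNA differed between ER and cytosol targeting for 39 of the 42 genes tested, by the interaction in edgeR's quasi-likelihood fit. In all 39 it was higher at the ER, with Pigs the largest (2.56, SE 0.056). Over all genes 24.8% were higher and 18.6% lower. Alg13, Piga and Dpm1 were the genes for which the difference was not called. With 0 genes called between both whole-cell groups, this difference largely restates the first comparison, in which Pigs had 2.57.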

How the results depend on the processing

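Calls on ER-labelled over cytosol-labelled ribosomes numbered 39 to 41 without any library in turn and 39 to 42 under the other alternatives; on ER-labelled ribosomes over whole-cell RNA 37 to 38 genes stayed higher by count and 2 to 3 lower; on cytosol-labelled ribosomes 27 to 32 and 29 to 32 were lower; for the difference 39 and 39 to 41 were higher. Leaving out a library gave 0 to 1 genes above whole-cell level on cytosol-labelled ribosomes, the 1 being Pigc without cytosol whole-cell replicate 2. Scaling to cytosolic proteins turned Pgap1 on ER-labelled ribosomes over whole-cell RNA to 0.01, shifted the median of all genes there by 0.25, and gave 8425 genes higher and 2269 lower (5271 and 4967 by TMM), and 6726 and 317 for the difference (4023 and 3010). Of the genes lower on cytosol-labelled ribosomes, Pigh, Dpm3, Pigx, Pigf and Srd5a3 lost the call under 1 or more alternatives; the cause was not tested. The replicate block left 41, 38 and 3, 32, and 39 calls, and a block by lysate, within each targeting, left 38 and 3, 32, and 39. The replicate numbers did not pair the libraries by their values, since deviations of same-numbered libraries correlated at -0.04 to 0.06, although the design text takes both RNAs from the same lysates. Low counts limit Pigz, Pigw, Dpm1, Dolk, Mppe1 and Pgap3.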
